A study of Mus musculus with 12 samples.

Results

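The genes described here encode Toll-like receptors (TLRs) and the proteins that pair with them to bind lipopolysaccharide (LPS). They are Tlr4, Ly96, Cd180, Ly86, Tlr1, Tlr2, Tlr3, Tlr6, Tlr7 and Tlr9, 10 of the 24346 gene symbols measured, chosen by name. RNA was sequenced in marginal zone B cells of the mouse, B lymphocytes at the edge of the splenic marginal sinus that respond fast to microbial products. The groups were Trpm5-/- cells (KO, lacking the channel gene Trpm5) and wild-type cells (WT), each held for 4 h with LPS at 10 µg/mL, with an antibody to IgM (anti-IgM) at 10 µg/mL or unstimulated. Each of the 6 groups had 2 libraries, 12 in all, so that every group shares the 4 h culture, and the series asks what loss of TRPM5 does to LPS responses of B lymphocytes. The labels do not state the strain, age or sex of the mice, the deleted part of Trpm5 or the number of animals behind a library.

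Toll-like receptors are membrane proteins that recognise conserved microbial molecules and signal through MyD88 or TRIF to NF-kB and interferon regulatory factors. TLR4 binds LPS only together with MD-2, the product of Ly96. RP105, the product of Cd180, resembles TLR4 outside the cell but lacks its signalling domain. It pairs with MD-1, the product of Ly86, and is known in B cells for driving growth upon antibody ligation and for contributing to LPS responses. TLR2 pairs with TLR1 or TLR6 on the cell surface to bind bacterial lipopeptides, whereas TLR3, TLR7 and TLR9 bind nucleic acids in endosomes.

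Levels are given in FPKM, which counts fragments relative to transcript length and to a scaling factor of the library. Summed over all symbols the libraries reached 563461 to 805373 FPKM, with the highest sums in the 4 LPS libraries. Relative depth, read from the size of a step of 1 fragment, ran from 0.645 to 1.06 of that of 1 WT unstimulated library. It follows that scaling factor and need not equal the number of fragments sequenced. Trpm5 itself had 0 to 2 fragments in each KO group and 3 to 26 in each WT group. Single libraries overlapped without stimulus, at 1 fragment in each KO library and 1 and 10 in the WT libraries. They were apart with LPS (0 and 1 in KO, 15 and 11 in WT) and with anti-IgM (0 and 0 in KO, 2 and 1 in WT). All marginal zone and pan-B markers found in the files were above 0 in every group. The pan-B sum was 3049 to 3115 FPKM in KO and 3693 to 3774 FPKM in WT libraries with LPS, 2618 to 2672 FPKM in KO and 3086 to 3119 FPKM in WT libraries with anti-IgM, and 6074 to 6104 FPKM in KO and 6480 to 6753 FPKM in WT unstimulated libraries. The follicular B sum was 2795 to 2838 FPKM in KO and 3151 to 3283 FPKM in WT libraries with LPS, 885 to 906 FPKM in KO and 1027 to 1031 FPKM in WT libraries with anti-IgM, and 1328 to 1379 FPKM in KO and 1633 to 1678 FPKM in WT unstimulated libraries. Both sums were thus lower in KO than in WT libraries in every condition, and the marginal zone sum, given beside Ly96, was higher. Ccr7 had the highest median of the follicular list and ran from 439.5 to 1827 FPKM over the 12 libraries. Of 15 macrophage and monocyte markers, Fcgr1 and Vsig4 were listed at 0 in all 12 libraries, and the sum ran from 18.1 to 40.3 FPKM, most of it Lyz2 and Cd68. Of 10 dendritic cell markers, the sum was 71.1 to 76.8 FPKM with LPS, 12.7 to 16.4 FPKM with anti-IgM and 8.28 to 10.2 FPKM without stimulus, most of it Zbtb46 (5.27 to 70.2 FPKM), while Clec10a was listed at 0 in all 12 libraries. Neutrophil markers summed to at most 5.66 FPKM and NK cell markers to at most 2.15 FPKM. The part of these moving lists in the responses and genotype differences given next was not tested.

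The genes spanned a wide range of levels. Ly86 was the most abundant, with a lowest, median and highest library of 186, 232 and 291 FPKM, followed by Ly96 with 34.3, 51.3 and 93.0 FPKM. By the mean over the 12 libraries, Tlr1 (22.6 FPKM) and Tlr7 (12.8 FPKM) were the leading receptors. Cd180 (6.83 FPKM), Tlr4 (3.865 FPKM) and Tlr2 (3.06 FPKM) lay below them by that mean. The order changed with anti-IgM, where Cd180 lay above Tlr1 in every library. Tlr6 reached at most 2.15 FPKM. Tlr3 and Tlr9 stayed under 1 FPKM in all 12 libraries, so 8 of the 10 genes passed the filter (at least 1 FPKM in at least 2 libraries) and entered the fit.

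Differences were tested with limma on log2(FPKM + 1), with Benjamini-Hochberg adjustment over the 10797 genes tested. They are given below as log2 differences ± SE of the fit. The +1 understates changes of low genes. A gene was called at an adjusted p under 0.05. Nothing states that replicate libraries stem from separate mice or cultures. The p-values thus judge a difference only against the spread between replicate libraries, pooled over the groups, which may be technical variation.

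Stimulation changed most of the receptor genes, and genotype changed few. With LPS against no stimulus, 2 of the 8 genes rose and 5 fell in KO cells, where 68.7% of all genes tested were called, and 1 rose and 5 fell in WT cells, where 69.4% were called. With anti-IgM, 2 rose and 4 fell in KO cells against a background of 49.9% called, and 2 rose and 3 fell in WT cells against 48.6%. The median difference of the 8 genes was -0.52 in KO and -0.32 in WT cells with LPS, and -0.29 in KO and -0.21 in WT cells with anti-IgM, while the median over all genes tested lay between -0.02 and 0.02. The share of the 8 genes called was above the background in each of the 4 responses. With only 8 genes these shares are coarse, and their difference from the background was not tested. Both responses of a genotype share its unstimulated libraries.

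Between KO and WT cells, 1 of the 8 genes was called without stimulus, where 6.11% of all genes were called, and 1 with LPS, where 3.59% were called. With anti-IgM none of the 8 was called by limma, 1 had an unadjusted p under 0.05, and 3.83% of all genes were called. Averaged over the 3 conditions, 1 of the 8 was called against 16% of all genes.

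**Figure D1:**
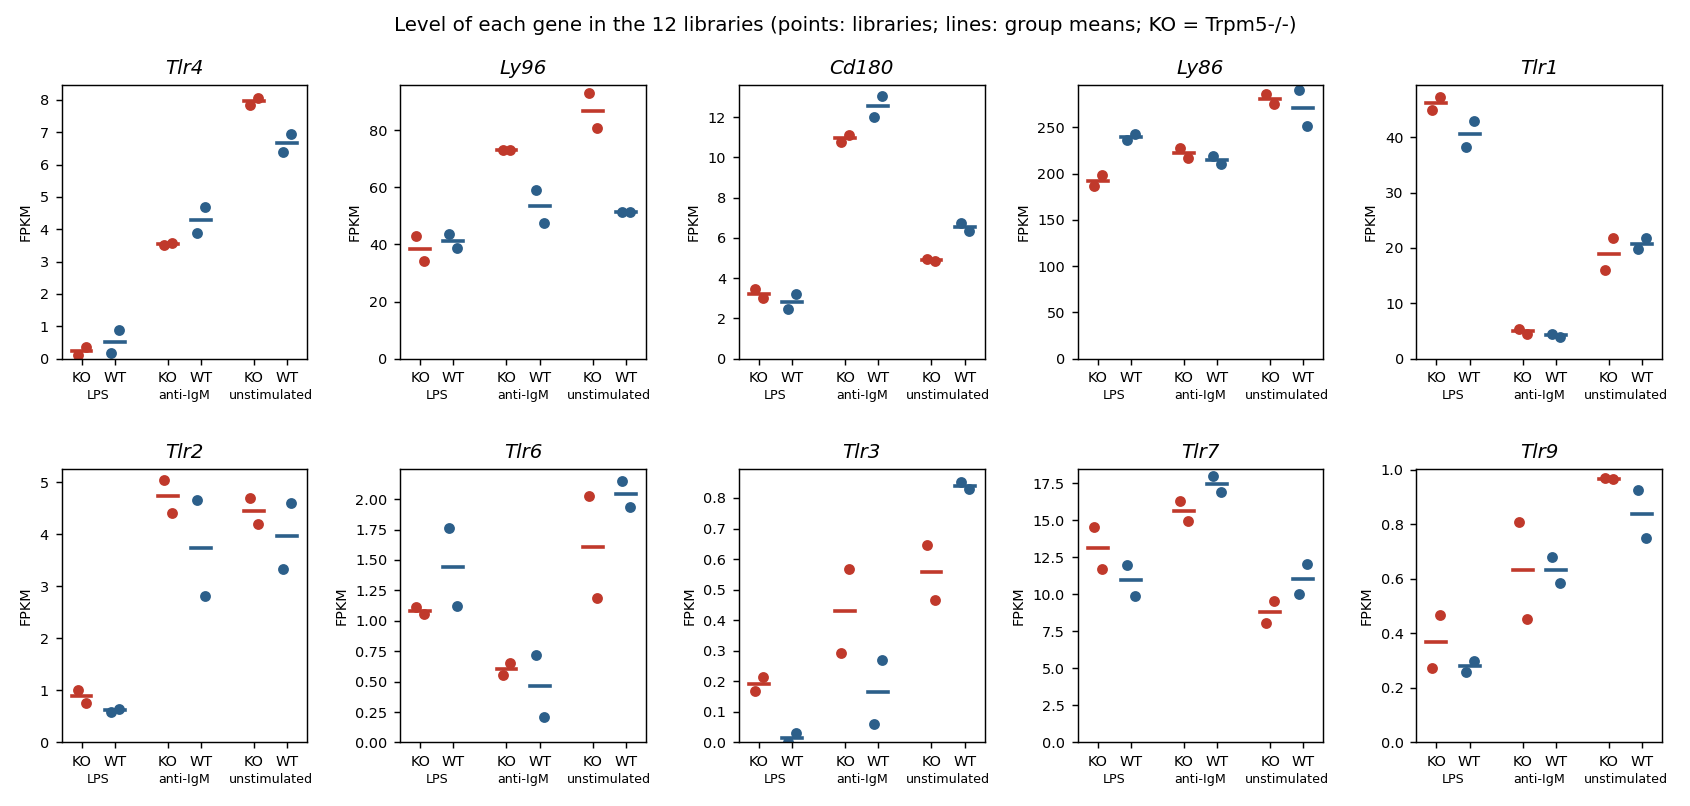
FPKM of each gene (y axis, from 0, own scale per panel) in the 12 libraries, by genotype and condition (x axis); points are libraries and horizontal lines are means of 2 libraries. Tlr4 and Tlr2 are lowest with LPS, Tlr1 is highest with LPS and lowest with anti-IgM, and Cd180 and Tlr7 are highest with anti-IgM.

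The LPS receptor gene Tlr4 (chromosome 4, 66827584-66930284, plus strand; mm10, GENCODE M21, as for all gene positions here) fell furthest of the 8 with LPS in both genotypes. With LPS it stood at 0.108 and 0.348 FPKM in KO cells and at 0.166 and 0.871 FPKM in WT cells. With anti-IgM it stood at 3.51 and 3.57 FPKM in KO cells and at 3.89 and 4.67 FPKM in WT cells. Unstimulated KO cells held 7.84 and 8.07 FPKM, and unstimulated WT cells 6.38 and 6.95 FPKM. The 3 conditions did not overlap in either genotype.

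The mean Tlr4 level with LPS was 2.87% of the unstimulated mean in KO cells and 7.78% in WT cells. The log2 difference was -2.87 ± 0.21 in KO cells (limma adjusted p = 7.43e-07) and -2.37 ± 0.21 in WT cells (limma adjusted p = 3.16e-06). Only 103 of the 10797 genes tested had a lower difference in KO cells, and 237 in WT cells. These low levels rest on few fragments. The steps of the FPKM values gave 14 fragments in both KO LPS libraries together (95% Poisson interval 7.65 to 23.5, counting error only) and 31 in both WT LPS libraries (21.1 to 44.0), of which 1 library held 26. Unstimulated cells gave 670 fragments in KO and 573 in WT. With a pseudocount of 0.1 the differences were -4.72 in KO and -3.73 in WT cells.

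The smaller difference of Tlr4 with anti-IgM was called in KO cells (-0.98 ± 0.21, limma adjusted p = 0.00336) and not in WT cells (-0.54 ± 0.21, limma adjusted p = 0.0598). In KO cells it was lost with a pseudocount of 0.1 (limma adjusted p = 0.0970). Between LPS and anti-IgM, Tlr4 differed by -1.89 ± 0.21 in KO cells, where 51.9% of all genes and 6 of the 8 receptor genes were called, and by -1.83 ± 0.21 in WT cells, where 52.7% of all genes and 7 of the 8 were called. In whole-population RNA, fewer cells expressing a gene and less RNA per cell cannot be told apart. The macrophage marker sum was 23.9 to 25.3 FPKM in KO LPS and 27.4 to 28.3 FPKM in KO unstimulated libraries, and 18.1 to 23.7 FPKM in WT LPS and 33.0 to 40.3 FPKM in WT unstimulated libraries. Its part in the fall of Tlr4 was not tested.

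Ly96 (chromosome 1, 16688051-16709611, plus strand), which encodes the LPS-binding partner of TLR4, was higher in KO than in WT cells without stimulus and on average over the conditions. With LPS it was at 34.3 and 42.9 FPKM in KO cells, against 38.6 and 43.8 FPKM in WT cells. With anti-IgM the level was 73.0 and 73.1 FPKM in KO cells, against 47.4 and 59.2 FPKM in WT cells. Unstimulated KO cells held 80.7 and 93.0 FPKM, against 51.3 and 51.4 FPKM in unstimulated WT cells. KO and WT libraries were apart without stimulus and with anti-IgM and overlapped with LPS.

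The KO minus WT difference of Ly96 was 0.74 ± 0.13 without stimulus (limma adjusted p = 0.0102), and 158 of the 10797 genes had a higher one. It was 0.46 ± 0.13 with anti-IgM (limma adjusted p = 0.0797) and -0.10 ± 0.13 with LPS (limma adjusted p = 0.774). Averaged over the conditions it was 0.37 ± 0.07 (limma adjusted p = 0.00743). The call without stimulus was lost when either WT library (adjusted p = 0.0507 and 0.0523) or KO replicate 1 (0.0826) was left out. The averaged call was kept in all 20 alternatives run. The marginal zone marker sum was higher in KO libraries as well, at 823 to 863 FPKM in KO against 594 to 618 FPKM in WT libraries with LPS, 1055 to 1085 FPKM in KO against 844 to 852 FPKM in WT libraries with anti-IgM, and 1489 to 1506 FPKM in KO against 1172 to 1201 FPKM in WT unstimulated libraries. The markers with the highest medians in that list were Cd9 and Mzb1. Over the 12 libraries Cd9 ran from 240.5 to 471.7 FPKM and Mzb1 from 135.5 to 609.8 FPKM. The part of the marker sum in the values of Ly96 was not tested.

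LPS lowered Ly96 in KO cells to 44.4% of the unstimulated mean, a difference of -1.16 ± 0.13 (limma adjusted p = 1.45e-05). In WT cells the level with LPS was 80.3% of the unstimulated mean (-0.31 ± 0.13, limma adjusted p = 0.0469), a call lost in 5 of 13 alternatives (highest limma adjusted p = 0.234, without WT LPS replicate 2). The difference between these responses was -0.84 ± 0.18 with an unadjusted p of 0.000809 and a limma adjusted p of 0.174, so it did not pass. With anti-IgM, Ly96 was not called in KO cells (-0.24 ± 0.13, limma adjusted p = 0.136) or WT cells (0.04 ± 0.13, limma adjusted p = 0.800). The KO value was called at -0.45 under quantile normalization (limma adjusted p = 0.0129) and at -0.44 with each library scaled to an equal sum (limma adjusted p = 0.0132). Between LPS and anti-IgM, Ly96 differed by -0.91 ± 0.13 in KO and by -0.36 ± 0.13 in WT cells, both called by limma, and the WT call was lost in 4 of 13 alternatives.

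**Figure D2:**
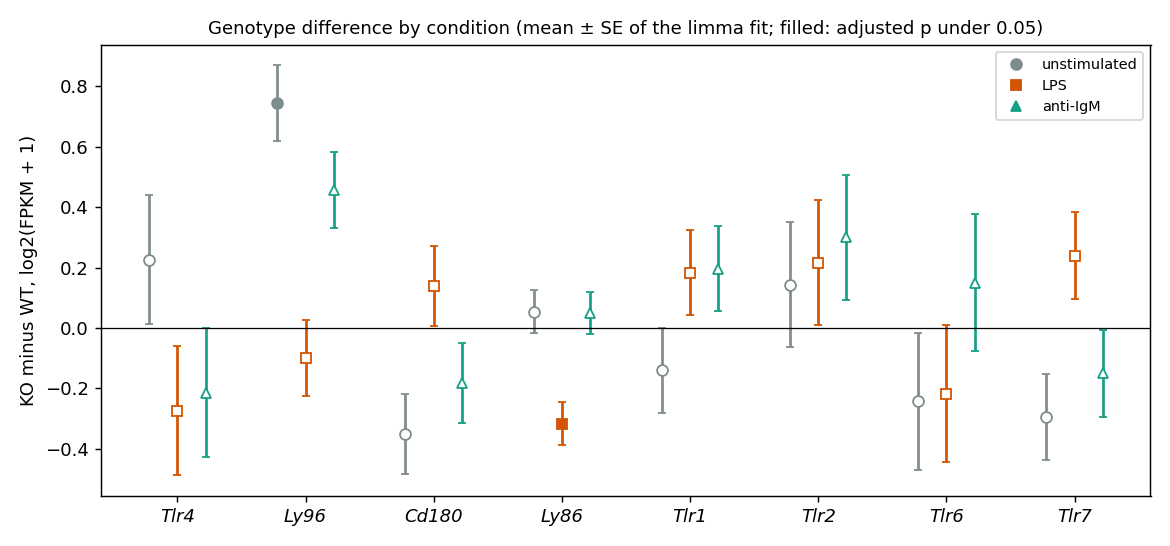
KO minus WT difference of log2(FPKM + 1) (y axis, ± SE of the limma fit) for the 8 tested genes (x axis) without stimulus (circles), with LPS (squares) and with anti-IgM (triangles); filled symbols have an adjusted p under 0.05. Ly96 without stimulus (0.74) and Ly86 with LPS (-0.32) are the filled symbols.

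Cd180 (chromosome 13, 102693558-102739629, plus strand), the gene of RP105, moved in opposite directions with the stimuli. With anti-IgM it stood at 10.8 and 11.1 FPKM in KO cells and at 12.03 and 13.1 FPKM in WT cells. With LPS it stood at 2.99 and 3.44 FPKM in KO cells and at 2.45 and 3.22 FPKM in WT cells. Unstimulated libraries lay between these, at 4.87 and 4.94 FPKM in KO cells and 6.32 and 6.75 FPKM in WT cells, with no overlap between conditions.

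Anti-IgM raised Cd180 by 1.02 ± 0.13 in KO cells (limma adjusted p = 0.000114) and by 0.85 ± 0.13 in WT cells (limma adjusted p = 0.000404). LPS changed it by -0.49 ± 0.13 in KO cells (limma adjusted p = 0.00731) and by -0.98 ± 0.13 in WT cells (limma adjusted p = 7.13e-05). The LPS call in KO cells was lost under quantile normalization (-0.05, adjusted p = 0.754). LPS minus anti-IgM was -1.505 ± 0.13 in KO and -1.83 ± 0.13 in WT cells. Unstimulated KO and WT libraries did not overlap, but the difference of -0.35 ± 0.13 was not called (limma adjusted p = 0.166).

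Of the exon bases of Cd180, 4.04% overlap exons of Mast4 on the opposite strand, and the kit and counting are not stated to keep strand. Mast4 was at 1.97 and 2.12 FPKM in KO anti-IgM libraries, against 3.42 and 3.77 FPKM in KO unstimulated libraries, and at 1.94 and 2.14 FPKM in WT anti-IgM libraries, against 3.82 and 4.57 FPKM in WT unstimulated libraries. With LPS, Mast4 was at 1.48 and 1.71 FPKM in KO and at 1.48 and 2.10 FPKM in WT libraries. Mast4 thus lay below its unstimulated libraries with either stimulus, whereas Cd180 was higher with anti-IgM and lower with LPS, and the part of the overlap in these values was not tested.

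Ly86 (chromosome 13, 37345208-37419036, plus strand), the gene of MD-1, had group means from 192 to 281 FPKM. LPS libraries held 186 and 199 FPKM in KO cells and 236 and 243 FPKM in WT cells. With anti-IgM it stood at 217 and 227 FPKM in KO cells and at 210 and 219 FPKM in WT cells. It stood at 275 and 286 FPKM in KO and 251 and 291 FPKM in WT unstimulated cells. Each stimulated group lay below its unstimulated libraries.

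The 4 falls of Ly86 were called by limma. They were -0.54 ± 0.07 (adjusted p = 5.04e-05) in KO and -0.17 ± 0.07 (adjusted p = 0.0479) in WT cells with LPS, and -0.34 ± 0.07 (adjusted p = 0.00258) in KO and -0.33 ± 0.07 (adjusted p = 0.00285) in WT cells with anti-IgM. The WT call with LPS was lost in 6 of 13 alternatives, and without WT unstimulated replicate 1 its value was -0.07 (limma adjusted p = 0.385). With LPS, Ly86 was lower in KO than in WT cells by -0.32 ± 0.07 (limma adjusted p = 0.0354). That call was lost whichever of the 4 LPS libraries was left out (limma adjusted p 0.0702 to 0.177) and in 7 of 13 alternatives in all. Between LPS and anti-IgM it was -0.21 ± 0.07 in KO cells (limma adjusted p = 0.0295) and 0.16 ± 0.07, not called, in WT cells (limma adjusted p = 0.0828). The KO call was lost in 4 of 13 alternatives, and the WT value turned to -0.21 and was called under quantile normalization (limma adjusted p = 0.0256).

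Ratios within a library show how the partner genes stood to each other, free of any scaling between libraries. The Cd180 to Tlr4 ratio of FPKM was 8.59 and 31.8 in KO and 3.70 and 14.8 in WT libraries with LPS, and 3.07 and 3.12 in KO and 2.80 and 3.09 in WT libraries with anti-IgM. It was 0.604 and 0.630 in KO and 0.909 and 1.06 in WT unstimulated libraries. Both stimuli thus went with more Cd180 per Tlr4 in every library. With LPS both genes were lower than without stimulus. The LPS ratios rest on 4 and 10 Tlr4 fragments in KO and on 5 and 26 in WT libraries. Ly86 exceeded Cd180 by 54.2 and 66.4 times in KO and 75.4 and 96.5 times in WT libraries with LPS, and by 19.5 and 21.1 times in KO and 16.1 and 18.2 times in WT libraries with anti-IgM, against 56.5 and 57.9 times in KO and 39.8 and 43.0 times in WT unstimulated libraries.

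**Figure D3:**
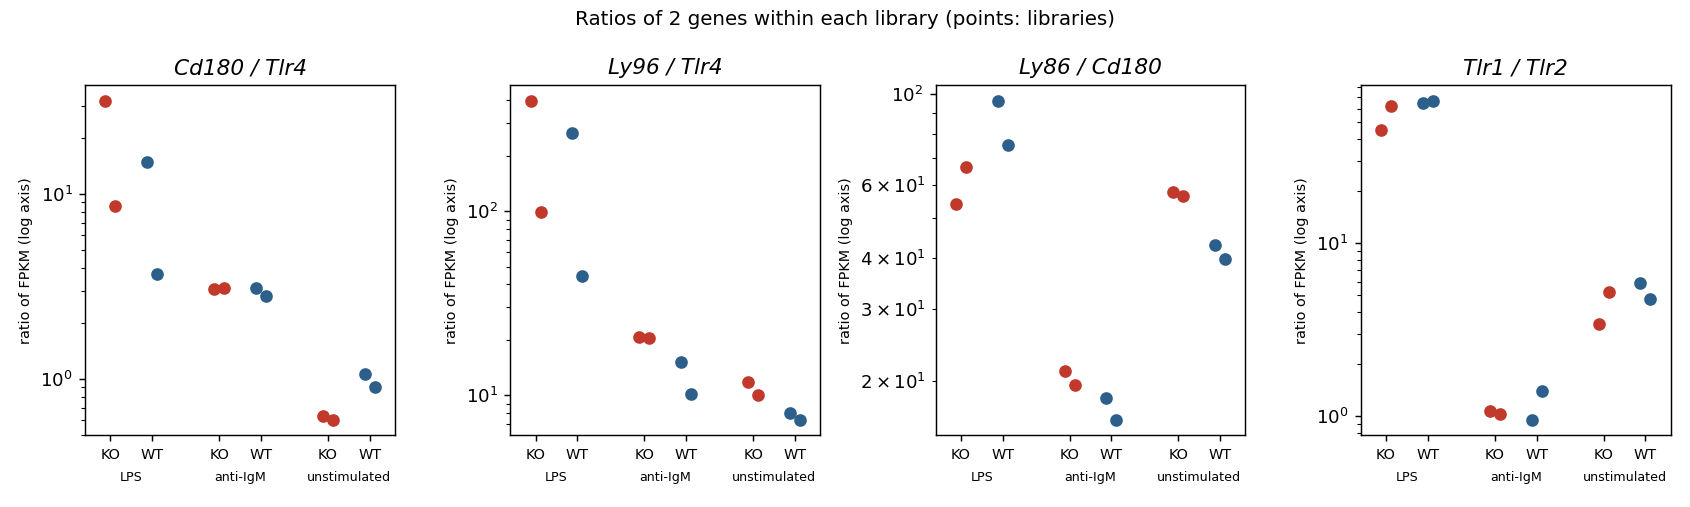
Ratio of the FPKM of 2 genes within each library (y axis, log scale) by genotype and condition (x axis); each point is a library. Cd180 to Tlr4 and Ly96 to Tlr4 are highest with LPS, Ly86 to Cd180 is lowest with anti-IgM, and Tlr1 to Tlr2 lies between 44.8 and 66.5 with LPS and between 0.958 and 1.40 with anti-IgM.

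Tlr1, which encodes a partner of TLR2, rose with LPS and fell with anti-IgM. With LPS it stood at 45.0 and 47.3 FPKM in KO and 38.3 and 42.9 FPKM in WT cells. With anti-IgM it stood at 4.53 and 5.41 FPKM in KO and 3.95 and 4.45 FPKM in WT cells. Unstimulated cells held 16.1 and 21.8 FPKM in KO and 19.7 and 21.8 FPKM in WT. The conditions were fully apart in each genotype.

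The LPS rise of Tlr1 was 1.26 ± 0.14 in KO cells (limma adjusted p = 1.79e-05) and 0.93 ± 0.14 in WT cells (limma adjusted p = 0.000164). The anti-IgM fall was -1.73 ± 0.14 in KO cells (limma adjusted p = 3.93e-06) and -2.06 ± 0.14 in WT cells (limma adjusted p = 1.05e-06). In WT cells 85 of the 10797 genes tested had a lower difference with anti-IgM. Set against each other, LPS exceeded anti-IgM by 2.985 ± 0.14 in KO cells and 2.998 ± 0.14 in WT cells, and 46 genes in KO and 37 in WT cells had a higher difference.

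Tlr2, the shared subunit of the lipopeptide receptors, fell with LPS and not with anti-IgM. With LPS it stood at 0.765 and 1.003 FPKM in KO and 0.593 and 0.645 FPKM in WT cells. Cells with anti-IgM held 4.41 and 5.04 FPKM in KO and 2.81 and 4.65 FPKM in WT, and unstimulated cells 4.19 and 4.70 FPKM in KO and 3.33 and 4.59 FPKM in WT. The LPS libraries lay below all others, and the unstimulated and anti-IgM libraries overlapped.

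With LPS the mean of Tlr2 was 19.9% of the unstimulated mean in KO and 15.6% in WT cells. The differences were -1.53 ± 0.21 in KO (limma adjusted p = 7.17e-05) and -1.60 ± 0.21 in WT cells (limma adjusted p = 5.01e-05). With anti-IgM they were 0.07 ± 0.21 in KO (limma adjusted p = 0.801) and -0.08 ± 0.21 in WT cells (limma adjusted p = 0.767). LPS minus anti-IgM was -1.60 ± 0.21 in KO and -1.52 ± 0.21 in WT cells. The LPS values rest on 43 fragments in KO and 27 in WT cells. The macrophage marker sums given beside Tlr4 apply here too, and their part was not tested.

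Tlr6, the other partner of TLR2, was low throughout. Cells with LPS held 1.06 and 1.11 FPKM in KO and 1.12 and 1.77 FPKM in WT, cells with anti-IgM 0.553 and 0.651 FPKM in KO and 0.210 and 0.721 FPKM in WT, and unstimulated cells 1.19 and 2.02 FPKM in KO and 1.94 and 2.15 FPKM in WT. The anti-IgM libraries were the lowest. The anti-IgM fall was -0.68 ± 0.23 in KO (limma adjusted p = 0.0288) and -1.08 ± 0.23 in WT cells (limma adjusted p = 0.00277), and the KO call was lost in 5 of 12 alternatives. The LPS differences of -0.30 ± 0.23 in KO and -0.33 ± 0.23 in WT cells were not called (limma adjusted p = 0.256 and 0.218). LPS minus anti-IgM was 0.38 ± 0.23, not called, in KO cells (limma adjusted p = 0.188) and 0.75 ± 0.23 in WT cells (limma adjusted p = 0.0183), and the WT call was lost in 2 of 12 alternatives, without WT LPS replicate 1 and without WT anti-IgM replicate 2. The KO value was 0.63 and called under quantile normalization (limma adjusted p = 0.0465).

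Tlr1 (chromosome 5, 64924679-64933563) and Tlr6 (chromosome 5, 64952031-64960097) are neighbours on the minus strand, 18.5 kb apart, and share sequence. Of the 50-base windows of their transcripts, 13.6% of those of Tlr1 and 12.3% of those of Tlr6 occur in both genes. The labels do not state how fragments from such stretches were assigned, so the level of Tlr6, which lies below that of Tlr1 in every library, is uncertain. The Tlr1 to Tlr6 ratio ranged from 6.18 to 44.6 over the 12 libraries.

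The promoters of Tlr2 and Tlr1 are shown because both genes responded to LPS in opposite directions, and that of Cd180 because it rose with anti-IgM and fell with LPS. Sequences are from RefSeq on GRCm38.p6 and run from 250 bases before to 50 bases after the start of transcription, 5′ to 3′ on the strand of the gene. RefSeq lists a further start for Tlr1 and for Cd180 that is not printed. Capitals mark matches on either strand to an NF-kB pattern (GGG, any 5 bases, CC), the ETS pattern GAGGAA of PU.1 and SPI-B, an ETS-IRF composite, an interferon-stimulated response element or the AP-1 pattern TGANTCA. The Tlr2 promoter lies at chr3:83841559-83841858, minus strand, the Tlr1 promoter at chr5:64933509-64933808, minus strand, and the Cd180 promoter at chr13:102693297-102693596, plus strand.
Tlr2 promoter: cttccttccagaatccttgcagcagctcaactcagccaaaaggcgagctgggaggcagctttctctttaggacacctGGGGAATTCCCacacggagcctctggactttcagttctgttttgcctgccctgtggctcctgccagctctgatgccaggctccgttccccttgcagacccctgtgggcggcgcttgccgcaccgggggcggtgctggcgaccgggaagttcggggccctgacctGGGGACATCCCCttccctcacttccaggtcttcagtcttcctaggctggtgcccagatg
Tlr1 promoter: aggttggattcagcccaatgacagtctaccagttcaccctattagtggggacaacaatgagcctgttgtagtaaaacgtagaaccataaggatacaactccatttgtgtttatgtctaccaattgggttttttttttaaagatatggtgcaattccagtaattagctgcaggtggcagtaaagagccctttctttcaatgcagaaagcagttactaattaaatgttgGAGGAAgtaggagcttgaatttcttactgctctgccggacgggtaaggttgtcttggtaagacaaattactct
Cd180 promoter: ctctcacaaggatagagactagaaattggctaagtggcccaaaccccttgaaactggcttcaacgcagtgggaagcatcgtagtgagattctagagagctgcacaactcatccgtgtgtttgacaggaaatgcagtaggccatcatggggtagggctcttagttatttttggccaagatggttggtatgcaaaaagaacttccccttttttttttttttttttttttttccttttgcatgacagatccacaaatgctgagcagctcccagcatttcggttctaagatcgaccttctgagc
In the Tlr2 promoter overlapping matches to the NF-kB pattern begin at -173 and at -9 from the start, and 50.8% of all 32851 promoters in the table hold that pattern. In the Tlr1 promoter GAGGAA stands at -23, and 28.3% of all promoters hold it. The Cd180 promoter held no match to any of the 5 patterns, and neither did that of Ly86. AP-1 matches were found in 7.81% of all promoters and among these genes in that of Tlr9. Promoters of Tlr3 and Tlr6 also held the NF-kB pattern, and that of Tlr9 also held GAGGAA. Tlr6 also held the interferon-stimulated response element, found in 3.44% of all promoters. Promoters were found for 7 of the 10 genes, namely Tlr2, Tlr1, Tlr6, Tlr3, Tlr9, Ly86 and Cd180, and not for Tlr4, Ly96 and Tlr7.

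Tlr7 (chromosome X, 167304929-167330558, minus strand), the endosomal receptor for single-stranded RNA, was the one endosomal receptor that passed the filter. With anti-IgM it stood at 14.96 and 16.3 FPKM in KO and 16.9 and 18.0 FPKM in WT cells. With LPS it stood at 11.7 and 14.6 FPKM in KO and 9.89 and 12.01 FPKM in WT cells. Unstimulated cells held 8.09 and 9.57 FPKM in KO and 10.0 and 12.1 FPKM in WT. The anti-IgM libraries were above the unstimulated ones in both genotypes, and the LPS libraries were above them in KO cells and overlapped them in WT cells.

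Anti-IgM raised Tlr7 by 0.76 ± 0.14 in KO (limma adjusted p = 0.00137) and by 0.62 ± 0.14 in WT cells (limma adjusted p = 0.00481). With LPS the difference was 0.52 ± 0.14 in KO cells (limma adjusted p = 0.00802) and -0.01 ± 0.14 in WT cells (limma adjusted p = 0.942). The KO call was lost without KO LPS replicate 1 (0.37, adjusted p = 0.0724), without KO unstimulated replicate 1 (0.41, adjusted p = 0.0638), and when each library was scaled to an equal sum (TPM; 0.15, adjusted p = 0.398). That scaling made the WT value -0.38 and called it (limma adjusted p = 0.0387). LPS minus anti-IgM was -0.24 ± 0.14, not called, in KO cells (limma adjusted p = 0.186) and -0.63 ± 0.14 in WT cells (limma adjusted p = 0.00396), and with scaling to an equal sum the KO value was -0.45 and called (limma adjusted p = 0.0276). The unstimulated KO minus WT difference was -0.29 ± 0.14 and was not called (limma adjusted p = 0.284).

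Tlr9 (chromosome 9, 106222598-106226883, plus strand), the receptor for CpG DNA, was low. LPS libraries held 0.271 and 0.466 FPKM in KO and 0.259 and 0.299 FPKM in WT cells, and anti-IgM libraries 0.451 and 0.810 FPKM in KO and 0.586 and 0.679 FPKM in WT cells. It stood at 0.968 FPKM in both KO unstimulated libraries and at 0.751 and 0.926 FPKM in WT unstimulated libraries. The LPS libraries lay below the unstimulated ones in both genotypes. The fragments behind these levels were 21 in KO and 15 in WT cells with LPS, against 73 in KO and 65 in WT cells without stimulus. In a fit without the filter the LPS difference of Tlr9 was -0.53 ± 0.12 in KO (limma adjusted p = 0.00611) and -0.52 ± 0.12 in WT cells (limma adjusted p = 0.00637).

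Tlr3 (chromosome 8, 45395665-45411080, minus strand), the receptor for double-stranded RNA, was the lowest of the 10 with LPS in WT cells. KO libraries with LPS had 7 fragments each, or 0.167 and 0.215 FPKM, and WT libraries with LPS had 0 and 1 fragment. Cells with anti-IgM held 0.294 and 0.567 FPKM in KO and 0.0598 and 0.269 FPKM in WT, and unstimulated cells 0.467 and 0.647 FPKM in KO and 0.828 and 0.853 FPKM in WT. KO libraries were above WT libraries with either stimulus and below them without one. In the fit without the filter the KO minus WT difference of Tlr3 was 0.23 ± 0.11 with LPS (limma adjusted p = 0.456), 0.30 ± 0.11 with anti-IgM (limma adjusted p = 0.259) and -0.24 ± 0.11 without stimulus (limma adjusted p = 0.345), none of them called. The LPS falls were called in that fit, at -0.38 ± 0.11 in KO (limma adjusted p = 0.0219) and -0.86 ± 0.11 in WT cells (limma adjusted p = 0.000266). Of the exon bases of Tlr3, 7.32% overlap the antisense gene Gm45542, whose fragments cannot be told apart without strand.

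**Figure D4:**
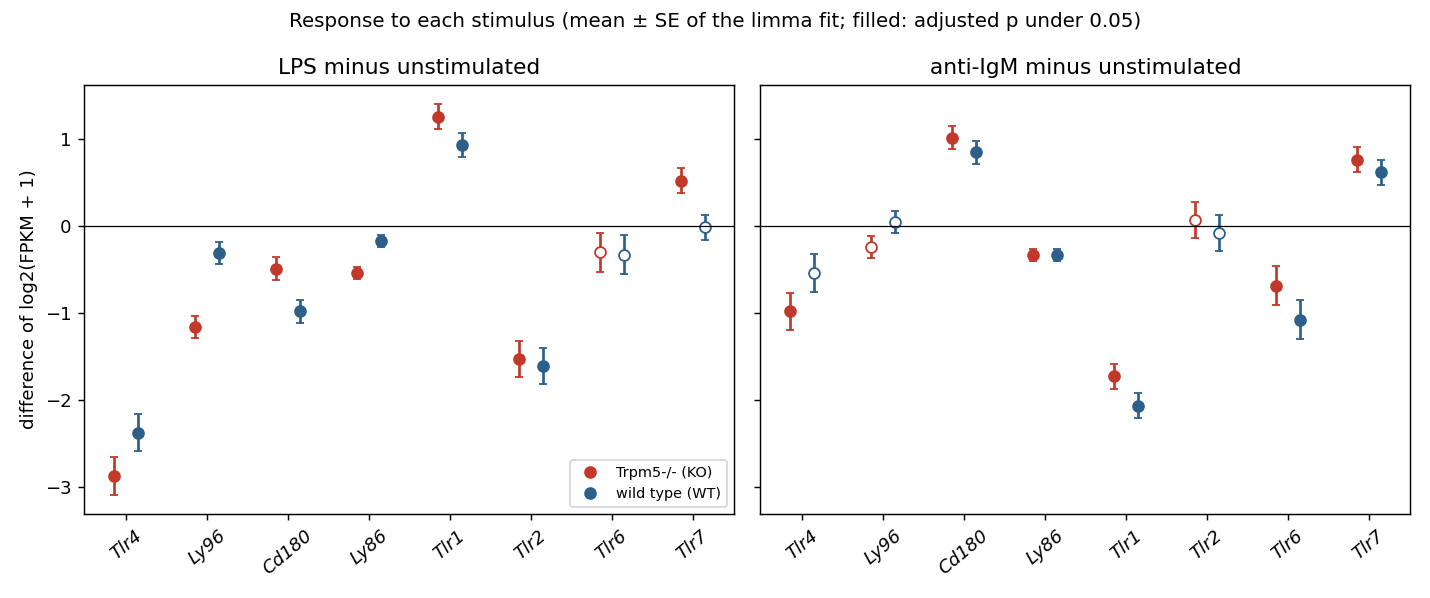
Difference of log2(FPKM + 1) between stimulated and unstimulated cells (y axis, ± SE of the limma fit) for the 8 tested genes (x axis), with LPS (left panel) and anti-IgM (right panel), in KO (red) and WT (blue) cells; filled points have an adjusted p under 0.05. Tlr4 and Tlr2 are the lowest with LPS, and Tlr1 is the highest with LPS and the lowest with anti-IgM.

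Whether the responses differed between genotypes was tested as an interaction. For LPS none of the 8 genes was called, against 0.102% of all genes, while 4 of the 8 and 1113 of the 10797 genes had an unadjusted p under 0.05. Those 4 were Ly96 as given above, Cd180 (0.49 ± 0.19, limma adjusted p = 0.406), Ly86 (-0.37 ± 0.10, limma adjusted p = 0.266) and Tlr7 (0.53 ± 0.20, limma adjusted p = 0.406). For anti-IgM none of the 8 was called, against 0.0278% of all genes, and 0 of the 8 and 857 of all genes had an unadjusted p under 0.05. A response called in 1 genotype alone, as for Tlr7 with LPS or Tlr4 with anti-IgM, is therefore not shown to differ between genotypes.

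The other 5 mouse TLR genes did not pass the filter. Tlr5 and Tlr11 were listed at 0 in all 12 libraries, and Tlr8 was above 0 in 1 KO unstimulated library alone, at 0.104 FPKM. Tlr12 had 1 fragment in KO and 1 in WT cells with LPS, against 34 in KO and 60 in WT cells without stimulus. Unstimulated libraries held 0.433 and 0.545 FPKM in KO and 0.854 and 0.855 FPKM in WT. In the fit without the filter its unstimulated KO minus WT difference was called (-0.32 ± 0.07, limma adjusted p = 0.0485). That fit also called its LPS falls, -0.54 ± 0.07 in KO (limma adjusted p = 0.000221) and -0.86 ± 0.07 in WT cells (limma adjusted p = 1.19e-05). Tlr13 held 19 fragments over the 12 libraries, 10 of them in 1 WT LPS library and 0 in the other.

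Genes that deliver LPS or fold, transport and process TLRs were listed by hand, as were the other pathway lists, and each change named from these lists was called by limma. Their counts stand against the same shares of all genes called, 68.7% in KO and 69.4% in WT cells with LPS and 49.9% in KO and 48.6% in WT cells with anti-IgM. Of the 13 tested of 16 listed, 2 rose and 8 fell with LPS in KO cells (median -0.65) and 3 rose and 9 fell in WT cells (median -0.51). Pld4, a lysosomal nuclease, fell by 2.10 in both genotypes, to 6.72 and 7.003 FPKM in KO LPS cells, against 30.7 and 34.6 FPKM in KO unstimulated cells. Ctsb, a lysosomal protease, fell by 1.48 in KO and by 1.40 in WT cells with LPS, and rose with anti-IgM by 0.78 in KO and by 0.71 in WT cells. Unc93b1, the chaperone that carries endosomal TLRs out of the endoplasmic reticulum, fell with LPS by 0.69 in KO and by 0.46 in WT cells and with anti-IgM by 0.99 in KO and by 0.81 in WT cells. Hsp90b1, the chaperone gp96 needed to fold TLRs, rose with anti-IgM by 0.48 in KO and by 0.58 in WT cells.

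With anti-IgM, 4 genes of that list rose and 7 fell in each genotype. Between genotypes, Cd36, a scavenger receptor and marginal zone marker, was higher in KO cells without stimulus (0.34 ± 0.06, limma adjusted p = 0.0107) and with LPS (0.59 ± 0.06, limma adjusted p = 0.00063). Hsp90b1 was higher in KO cells without stimulus (0.28 ± 0.05, limma adjusted p = 0.00895), and Unc93b1 was lower in KO cells with LPS (-0.23 ± 0.05, limma adjusted p = 0.0424). These were all the calls of the list between genotypes in a single condition, and averaged over the conditions 4 of its genes were higher and 2 lower in KO cells. The LPS carriers were low: Cd14 was at 0.212 and 0.272 FPKM in KO against 0.956 and 0.963 FPKM in WT unstimulated libraries, and at 0 in both KO libraries against 0.332 and 0.420 FPKM in WT libraries with LPS, and Lbp was above 0 in 1 library. Cd14 did not pass the filter and has no test.

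The list of adaptors, proximal kinases and transcription factors moved both ways. Of 25 tested of 26 listed, 10 rose and 9 fell with LPS in KO cells (median 0.10), 11 rose and 7 fell in WT cells (median 0.18). Myd88, the adaptor of nearly all TLRs, rose with LPS by 0.93 in KO and by 0.83 in WT cells. Irak2, a kinase of the MyD88 complex, fell by 1.47 in KO and by 1.28 in WT cells, and Peli1, a ubiquitin ligase acting on that complex, fell by 0.81 in KO and by 1.09 in WT cells. With anti-IgM 2 genes rose and 4 fell in KO cells and 4 rose and 4 fell in WT cells, led by Pik3ap1, the adaptor BCAP that links B cell receptor and TLR signals to PI3K, which rose by 1.34 in KO and by 1.43 in WT cells. Between genotypes 1 gene of this list was called without stimulus, the kinase gene Map3k7 (0.30 ± 0.07, limma adjusted p = 0.0449), and none with LPS or anti-IgM.

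Of 12 inhibitors of TLR signals, all tested, 4 rose and 6 fell with LPS in KO cells and 3 rose and 6 fell in WT cells. Tnfaip3, the ubiquitin-editing enzyme A20, rose by 2.86 in KO and by 2.89 in WT cells, and Nfkbia, the NF-kB inhibitor IkBa, by 2.29 in KO and by 2.15 in WT cells. Inpp5d, the phosphatase SHIP1, fell by 2.30 in KO and by 2.04 in WT cells. Averaged over the conditions, where 16% of all genes were called, 3 of the 12 inhibitors were lower in KO cells and none higher, namely Tnfaip3 (-0.28 ± 0.03, limma adjusted p = 0.0005), Nfkbia (-0.16 ± 0.03, limma adjusted p = 0.00535) and Irak3 (-0.35 ± 0.08, limma adjusted p = 0.0132). In single conditions Irak3 alone was called with LPS (-0.66 ± 0.13, limma adjusted p = 0.0244), where 3.59% of all genes were called. Tnfaip3 (-0.37 ± 0.06, limma adjusted p = 0.00857) and Nfkbia (-0.23 ± 0.05, limma adjusted p = 0.032) were called with anti-IgM, against 3.83% of all genes. No inhibitor was called between genotypes without stimulus, against 6.11%. With anti-IgM 3 inhibitors rose and 7 fell in each genotype.

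The signalling partners of RP105 fell with LPS, with 1 rise and 5 falls of 6 in each genotype (median -1.11 in KO and -1.39 in WT cells). The kinase gene Btk fell by 1.96 in KO and by 1.89 in WT cells, the kinase gene Lyn by 1.69 in KO and by 1.72 in WT cells, and Vav1, a guanine nucleotide exchange factor, by 1.56 in KO and by 1.49 in WT cells. With anti-IgM 5 of the 6 fell in KO and 4 in WT cells.

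The genes most like each receptor gene over the 12 libraries were ranked by Pearson r of log2(FPKM + 1) among 7459 genes with a mean of at least 5 FPKM. Tlr4 was followed most closely by Evi2b (0.9924), Hmces and Rnpepl1, Cd180 by Ddit3 (0.9807), Lck and Trib2, and Ly86 by Golph3l (0.9391) and Dnajc10. Ly96 was followed by Pdia4 (0.9389), Ebp and Tubb2b, and Tlr7 by Rabgef1 (0.9148), Stap1 and Anapc15. These values describe 6 groups of 2 libraries, mostly set by 3 shared conditions, and carry no test. The T cell marker list, to which Lck belongs, summed to 61.0 to 63.3 FPKM in KO and 72.0 to 75.8 FPKM in WT libraries with anti-IgM, against 25.6 to 28.5 FPKM in KO and 26.0 to 26.3 FPKM in WT unstimulated libraries. Most of that sum was Lck itself (13.5 to 66.2 FPKM), while Cd3e, Cd3d, Cd3g, Cd4, Cd8a and Cd28 stayed below 1 FPKM in all 12 libraries.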

How the data were processed

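Each deposited file gives FPKM by gene symbol. Per the submitters' processing notes, the tools were Cufflinks 2.2.1, SAMtools 0.1.19, TopHat2 2.0.13 and Bowtie2 2.2.3, with the mm10 build. The unit is not written in the files and was taken from those tools and from the values. The notes name neither the annotation nor read totals. Per the labels' protocols, total RNA was converted to full-length cDNA (SMART-Seq HT) and a Nextera library. Medians of library ratios lay within 1.008 and 1.015, so the values were already level between libraries and no scaling was added.

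Values were fitted as log2(FPKM + 1) with limma 3.58.1 in R 4.3.3: a group-means model over 12 libraries, eBayes with trend, 6 residual degrees of freedom, 2-sided, 10797 genes that reached 1 FPKM in 2 or more libraries. The fit was tested on simulated data. Fragments were read as FPKM divided by the gene's and library's step, within 0.05 of a whole number, for 7 of the 10 genes, not for Ly96, Tlr1 and Tlr7. They are the smallest whole numbers that fit, so intervals cover counting error only. Promoter and pathway genes came from hand lists. The named genes were all 10, of each pathway list the 2 to 4 of smallest p, and the 3 of highest r; 2 genes that this rule names are not reported here. The other alternatives were a pseudocount of 0.1, no filter, a mean of at least 5 FPKM, other scalings, no trend, fewer libraries and a replicate block. The genes and lists were chosen with earlier results of these data known.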

Additional observations from a re-analysis of the deposited data

How the results depend on the processing

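Of 40 calls of the receptor genes, 29 were kept under every alternative run and 11 were lost under at least 1, and none reversed. The count of receptor genes called between genotypes without stimulus (1) ranged from 0 to 1 when a library was left out. With LPS the count (1) became 0 without the filter, without the mean-variance trend and with the 4 libraries alone, and 0 without any 1 library. With anti-IgM it was 1 with the replicate block, where Ly96 passed (limma adjusted p = 0.0282). The correlation between groups of the difference of replicate 1 and 2 ran from -0.172 to 0.199, with 3 of 15 pairs over 0.1. Between KO and WT groups of the same condition it ran from 0.037 to 0.149. Correlations this weak cannot tell whether replicate numbers pair the libraries. With the block Ly96 in KO cells and Tlr4 in WT cells also passed with anti-IgM (limma adjusted p = 0.0497 and 0.0368), and no other reported call changed. These passed as well with the libraries of the comparison alone (limma adjusted p = 0.0416 for Ly96 and 0.0263 for Tlr4) and with scaling to an equal sum (0.0132 and 0.0469), and Ly96 under quantile normalization (0.0129). LPS against anti-IgM in WT cells called 4 genes, of 5 tested, at a mean of at least 5 FPKM. Scaling each library to an equal sum (TPM), added after seeing the data, moved the median of all genes by -0.37 in KO and -0.36 in WT cells for LPS and by -0.18 in KO and -0.11 in WT cells for anti-IgM. Uncalled values turned sign as follows. With quantile normalization, Tlr6 with LPS was 0.11 in KO and 0.14 in WT cells, Tlr7 with LPS in WT cells 0.16, Ly96 and Tlr2 with anti-IgM in WT cells -0.121 and 0.093, and Ly86 in LPS minus anti-IgM in WT cells -0.21, which then passed (limma adjusted p = 0.0256). With scaling to an equal sum, Tlr2 with anti-IgM in KO cells was -0.10, Ly96 with anti-IgM in WT cells -0.073 and Ly86 in LPS minus anti-IgM in WT cells -0.11. With 1 library left out, the KO minus WT difference with LPS ran from -0.255 to 0.058 for Ly96 and from -0.614 to 0.068 for Tlr4, Tlr7 with LPS in WT cells from -0.142 to 0.115, Tlr2 with anti-IgM from -0.0061 to 0.1501 in KO and from -0.369 to 0.199 in WT cells, and Ly96 with anti-IgM in WT cells from -0.113 to 0.203. The causes were not tested.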
